A study of Homo sapiens with 28 samples.

Results

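The 10 genes described here encode cytosolic chaperones and cochaperones that are commonly read as a heat shock response. They are HSPA1A, HSPA1B, HSPA6, HSPA8, HSPH1, HSP90AA1, AHSA1, BAG3, DNAJB1 and HSPB1. They were chosen by gene symbol, with earlier results of these data known, and all 10 are among the 60286 genes of the deposited count tables. Of these genes, 8 passed the filter on low counts and were among the 16325 genes tested, while HSPA1A and HSPA1B did not pass.

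RNA was sequenced from HT-1080 cells, a human fibrosarcoma line labelled wild type, after overnight incubation with 1 of 7 treatments, with 4 libraries per treatment. The treated groups received 5 µM CLA18:3, 10 nM RSL3 with 80 µM CLA18:2, 10 nM RSL3 with 80 µM LA, 80 µM CLA18:2, 80 µM LA, or 10 nM RSL3. The DMSO group received vehicle. The sample records of LA and CLA18:2 are numbered in a block apart from the other groups. Comparisons of these groups with the others cross that divide, and its part in the results was not tested. RSL3 is a ferroptosis inducer that inhibits the lipid peroxidase GPX4. LA is the usual abbreviation of linoleic acid, and CLA18:2 is read here as a conjugated isomer of it. CLA18:3 is by its name a conjugated fatty acid with a further double bond, so it is not a linoleic acid. The labels spell out none of these names, and CLA below stands for either compound. The fatty acid doses are in µM in the design text and in mM in the sample labels, and µM is used here. The design text calls the 4 replicates independent without saying what was repeated. P-values thus measure the spread between these libraries, pooled over the 7 groups, in 1 cell line. The series concerns free radical peroxidation and ferroptosis, a cell death driven by oxidized membrane lipids.

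Cytosolic HSP70 proteins bind unfolded segments of client proteins, J-domain proteins deliver clients and trigger ATP hydrolysis, and nucleotide exchange factors reset the cycle. HSP90 takes over many partly folded clients with the help of cochaperones, and small heat shock proteins hold unfolded proteins without using ATP. In unstressed cells the transcription factor HSF1 is held inactive, and when unfolded proteins accumulate it forms trimers that bind heat shock elements, which are inverted repeats of the unit GAA.

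Heat shock element letters were searched in the 250 bases before each RefSeq start (GRCh38.p14), because the members are usually grouped by HSF1 control. The pair motif was GAANNTTC or TTCNNGAA, each its own reverse complement. The 3-unit motif was GAANNTTCNNGAA or TTCNNGAANNTTC, which are reverse complements of each other, so both strands were covered, and every 3-unit match contains pair matches. All 10 members had an entry, with 14 starts in all. The pair motif was found in 7 of the members' 14 windows, each of another member, against 11.6% of all 35116 RefSeq windows. The 3-unit motif was found in 3 of the 14 windows, against 0.441% of all windows. HSPH1, BAG3 and AHSA1 had no match in these windows. The DNAJB1 and HSP90AA1 matches lie before 1 of their several RefSeq starts, and the HSPA8 and HSP90AA1 windows lie within exons of GENCODE 29. A match is a run of letters and does not show binding. The matches are shown on the gene's strand, 5′ to 3′, with the motif in capitals. The 3-unit matches come first, then the pair matches that set HSPA1A, HSPA1B, DNAJB1 and HSPB1 side by side. The HSPA1A and HSPA1B windows hold the same pair motif, and at the best of 11 offsets the 2 genes had the same base at 235 of 249 upstream bases (94.4%).
HSPA6, chr1:161524458-161524486, plus strand: cggaaaggTTCGCGAAAGTTCgcggcggc
HSPA8, chr11:123062346-123062374, minus strand: gcgagcttGAAAGTTCCAGAAcgctgcgg
HSPA8, chr11:123062171-123062199, minus strand: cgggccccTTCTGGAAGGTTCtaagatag
HSP90AA1, chr14:102087112-102087140, minus strand: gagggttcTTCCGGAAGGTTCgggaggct
HSPA1A, chr6:31815429-31815452, plus strand: aaaccctgGAATATTCccgacctg
HSPA1B, chr6:31827625-31827648, plus strand: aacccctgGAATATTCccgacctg
DNAJB1, chr19:14518459-14518482, minus strand: gcggggcgGAAGGTTCtggagggg
DNAJB1, chr19:14518429-14518452, minus strand: gggctctgGAAGCTTCcgccggac
HSPB1, chr7:76302483-76302506, plus strand: taacgagaGAAGGTTCcagatgag

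Library totals ran between 16226270 and 24286824 counts, and counting error is small for the abundant members. All 8 mesenchymal markers checked passed the low-count filter, as did 1 of 8 epithelial markers (CLDN4) and 0 of 8 blood cell markers. The groups differed in quality measures. Thinned to a common total, a library had on average 19378 detected genes with CLA18:3, 20030 with RSL3+CLA18:2, 21851 with RSL3+LA, 21778 with CLA18:2, 22142 with LA, 22314 with RSL3 and 22759 with DMSO. Mitochondrial transcripts took between 0.263% and 1.93% of counts in the 28 libraries. They split 5 of the treated groups. The share was 0.356% in CLA18:3 replicate 1 and 1.23% to 1.64% in its other 3 libraries, and 1.68% in RSL3+CLA18:2 replicate 3 and 0.263% to 0.313% in its other 3. It was 0.312% and 0.425% in CLA18:2 replicates 1 and 3 and 1.48% and 1.01% in its replicates 2 and 4. It was 0.451% in LA replicate 4 and 1.02% to 1.44% in its other 3, and 0.548% in RSL3 replicate 4 and 1.47% to 1.498% in its other 3. RSL3+LA had 1.46% to 1.93%, and DMSO had 1.26% to 1.49%. The part of these measures in the results below was not tested. Levels are given as CPM, the usual depth-scaled count, with library totals adjusted by the TMM method. They are shares of a library's RNA, and a change in some cells and a change in all cells cannot be told apart.

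**Figure D1:**
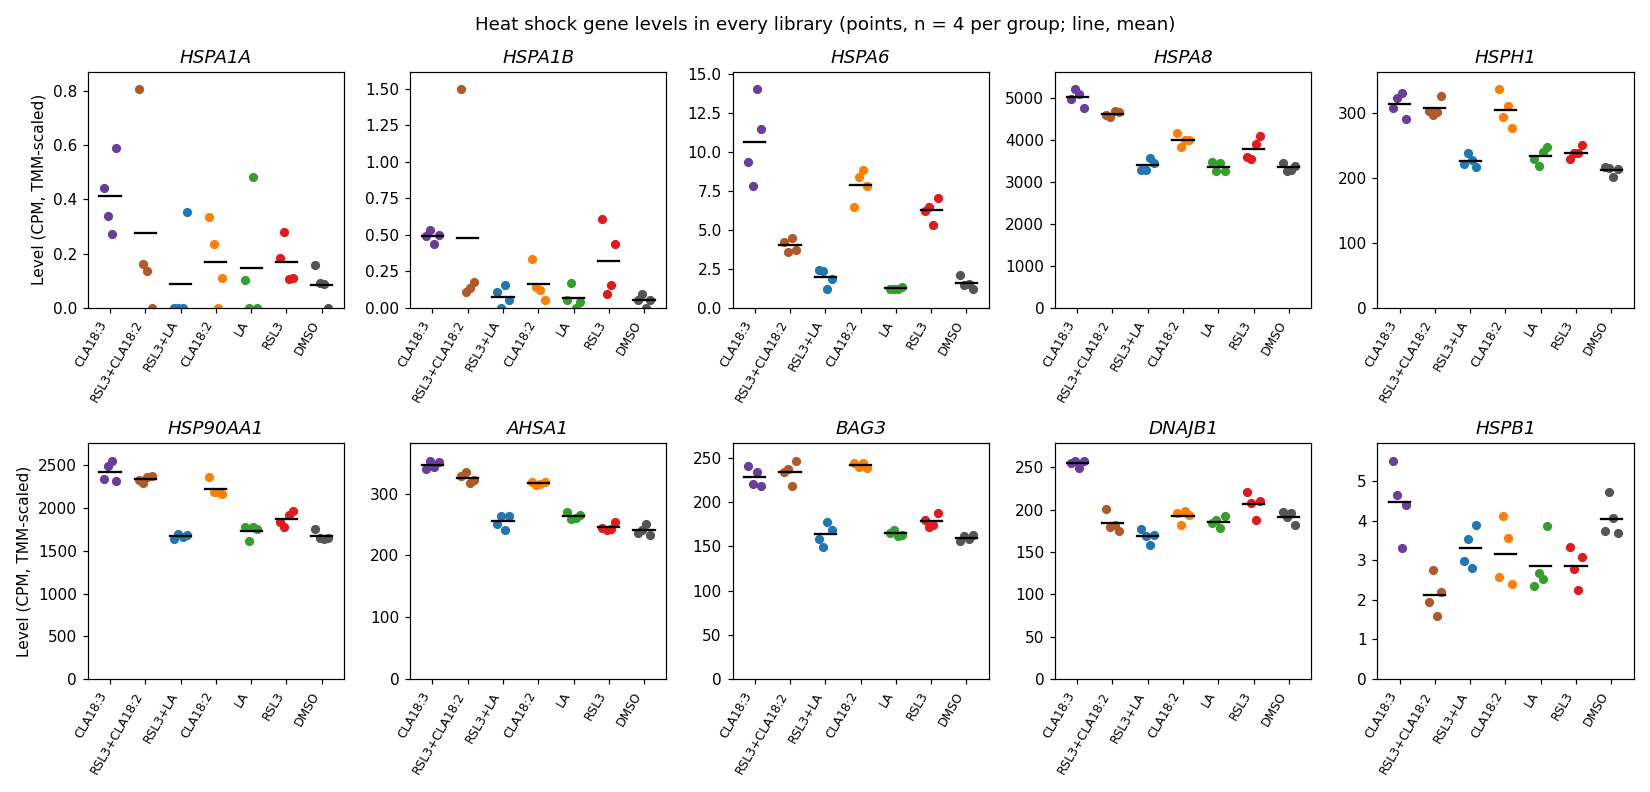
Level of each of the 10 genes (y axis, CPM scaled by TMM, from 0) in each of the 28 libraries, by treatment group (x axis); points are libraries, 4 per group, and lines are group means. HSPA6 stands high in CLA18:3, CLA18:2 and RSL3 and close to DMSO in LA and RSL3+LA, while HSPA1A and HSPA1B stay under 2 CPM in every library.

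The members spanned a wide range of levels when divided by exonic length (GENCODE 29). Per kilobase, HSPA8 had the highest mean level, at 1036 ± 38.7 CPM per kilobase with CLA18:3 and 691 ± 18.7 with DMSO (SD, n = 4 each). HSP90AA1 followed, at 463 ± 21.5 CPM per kilobase with CLA18:3 and 318 ± 10.2 with DMSO. AHSA1, BAG3, DNAJB1 and HSPH1 lay between 25.2 and 81.6 CPM per kilobase with DMSO. HSPB1 had 2.48 and HSPA6 0.665 CPM per kilobase with DMSO, and HSPA1A and HSPA1B had 0.0338 and 0.0199. The counts of HSPB1, HSPA1A and HSPA1B are low for genes that are usually well expressed in tumour cell lines. How reads that match several genes or overlapping features were counted is not given in the sources used here, and whether these low counts reflect expression was not tested.

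Against DMSO, most tested members were called higher in each of the 3 groups that received a CLA, and few in the other 3. CLA18:3 raised 7 of the 8 tested members and lowered none, where 19.1% of all tested genes were called higher and 16.7% lower. RSL3+CLA18:2 raised 6 and lowered 1, where 18.6% of tested genes were called higher and 16.6% lower. CLA18:2 raised 6 and lowered none, where 20.1% were called higher and 18.6% lower. In these 3 groups the members' share was above that of all tested genes, while all tested genes were called in both directions at like rates. The members were chosen with earlier results of these data known. Small changes are also called more readily in abundant members than in the low-count genes among all those tested. The shares are therefore a description and not a test. RSL3+LA raised none and lowered 1, where 5.43% were called higher and 4.81% lower. LA raised 1 and lowered none, where 4.91% were called higher and 3.41% lower. RSL3 raised 2 and lowered none, where 0.178% were called higher and 0.0245% lower.

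A member could also lie above or below DMSO in all 4 libraries without passing the test. Among the tested members, though not among all tested genes, this was most frequent with RSL3. There 5 tested members lay wholly above DMSO and 1 wholly below, where 3.98% of tested genes lay above and 2.58% below. Those above were HSPA6, HSPA8, HSPH1, HSP90AA1 and BAG3, and the one below was HSPB1. With CLA18:3, 7 members lay above, where 17% of tested genes lay above and 14.7% below. With RSL3+CLA18:2, 6 lay above and 1 below, where 17.5% lay above and 16.4% below. With CLA18:2, 6 lay above, where 21.2% lay above and 20.8% below. In these 3 comparisons the members that lay apart were the ones called by the test. With RSL3+LA, DNAJB1 alone lay below, where 9.28% of tested genes lay above and 9.43% below. With LA, HSPH1 and AHSA1 lay above, where 9.6% lay above and 8.55% below.

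The median log2 fold change of the 8 tested members was 0.53 for CLA18:3, 0.48 for RSL3+CLA18:2, 0.40 for CLA18:2, 0.16 for RSL3, 0.03 for RSL3+LA and 0.03 for LA. The median of all tested genes lay within 0.02 of 0 in each of these comparisons. These 6 comparisons share the DMSO libraries, so their values are given side by side and not set against each other as independent evidence. The doses of CLA18:3 and CLA18:2 differed, and the 2 were not compared with each other.

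**Figure D2:**
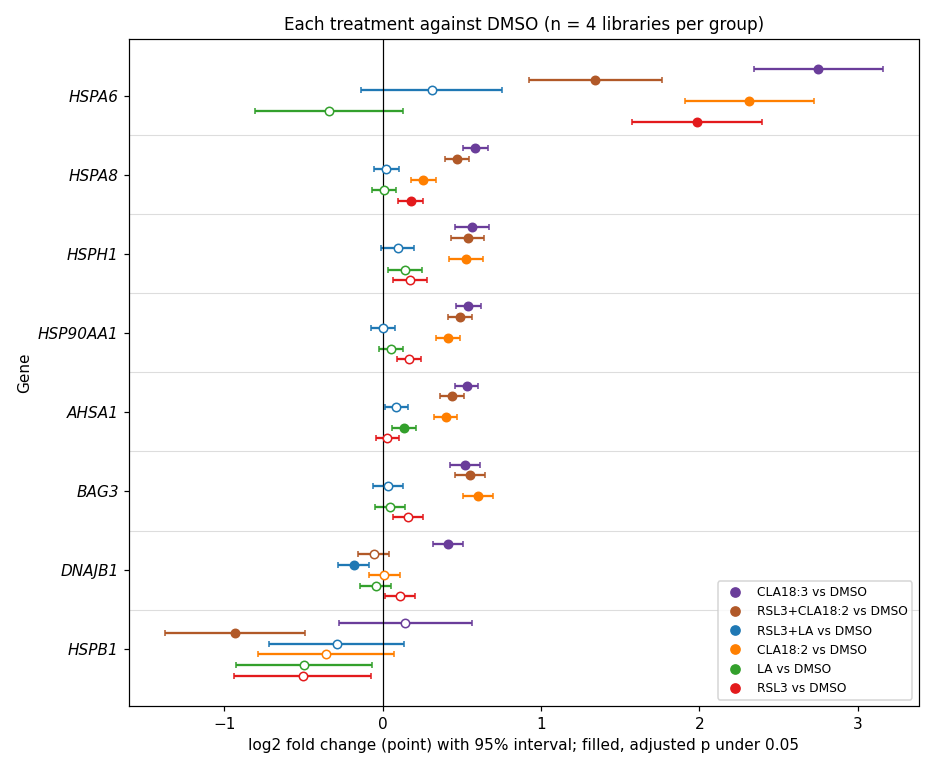
Log2 fold change (x axis) of the 8 tested genes (y axis) for each treatment against DMSO (points are estimates from edgeR, bars 95% intervals, n = 4 libraries per group), filled where the adjusted p was under 0.05. HSPA6 had the widest spread between treatments, and HSPA8, HSPH1, HSP90AA1, AHSA1 and BAG3 lay between 0.26 and 0.60 in the 3 groups that received a CLA.

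HSPA6 encodes a strictly stress-inducible HSP70 that mice lack, and it is a single-exon gene on chromosome 1 (161524540 to 161526910, plus strand, GRCh38). It had 9.33, 7.80, 14.0 and 11.5 CPM with CLA18:3, 6.44, 8.41, 8.82 and 7.83 with CLA18:2, and 6.24, 6.44, 5.33 and 7.04 with RSL3. It had 4.26, 3.55, 4.48 and 3.73 CPM with RSL3+CLA18:2, 2.41, 2.37, 1.23 and 1.82 with RSL3+LA, and 1.23, 1.21, 1.18 and 1.34 with LA, against 2.10, 1.48, 1.503 and 1.23 with DMSO. All libraries with CLA18:3, CLA18:2, RSL3 or RSL3+CLA18:2 lay above all DMSO libraries, while those with RSL3+LA and LA overlapped them. In order of mean level, CLA18:3, CLA18:2 and RSL3 overlapped from neighbour to neighbour. RSL3+CLA18:2 lay apart from RSL3 above it and from RSL3+LA below it, and RSL3+LA, DMSO and LA overlapped. These levels rest on 22 to 258 counts per library.

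Relative to DMSO, HSPA6 rose by a log2 fold change of 2.75 ± 0.20 (SE; edgeR quasi-likelihood test with Benjamini-Hochberg adjustment, adjusted p = 3.03e-13) with CLA18:3. The rise was 2.31 ± 0.20 with CLA18:2 (edgeR adjusted p = 1.17e-11) and 1.99 ± 0.20 with RSL3 (edgeR adjusted p = 9.56e-08). It was smaller with RSL3+CLA18:2, at 1.34 ± 0.21 (edgeR adjusted p = 2.61e-06). RSL3+LA had 0.31 ± 0.22 (edgeR adjusted p = 0.475) and LA had -0.34 ± 0.23 (edgeR adjusted p = 0.495), and neither passed. Of HSPA6 windows of 150 bases, 15.2% also occur in transcripts of HSPA7, its neighbouring pseudogene, which held 33 counts over all libraries against 2648 for HSPA6. How reads that match more than 1 gene were counted is not given in the sources used here.

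Among the 8 tested members, HSPA6 had the largest differences in the response to RSL3 between cells given different fatty acids. RSL3+CLA18:2 had 0.510 of the level of CLA18:2 alone (log2 -0.97 ± 0.18, edgeR adjusted p = 0.000334), whereas RSL3 had 3.96 times the level of DMSO. The difference between these 2 responses was a log2 value of -2.96 ± 0.27 (edgeR adjusted p = 1.04e-08). RSL3+LA had 1.57 times the level of LA alone, with a log2 interval of 0.20 to 1.11 and an adjusted p of 0.425 in edgeR. The response to RSL3 with LA differed from that without a fatty acid by -1.33 ± 0.30, with an unadjusted p of 0.000107 and an adjusted p of 0.219 in edgeR. The adjusted p became 0.0338 in edgeR when no low-count filter was used. It did not pass under the other settings that gave one, at up to 0.436 in edgeR or limma voom. With each library left out, it ran from 0.0939 to 0.652 in edgeR and never passed. The response to RSL3 with CLA18:2 differed from that with LA by -1.62 ± 0.29 (edgeR adjusted p = 0.000882).

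Adding a fatty acid to RSL3 went with a lower HSPA6 level in both combinations. RSL3+LA fell by 1.68 ± 0.20 on the log2 scale relative to RSL3 alone (edgeR adjusted p = 1.22e-07), and RSL3+CLA18:2 fell by 0.64 ± 0.18 (edgeR adjusted p = 0.00686). The groups' libraries did not overlap in either case.

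**Figure D3:**
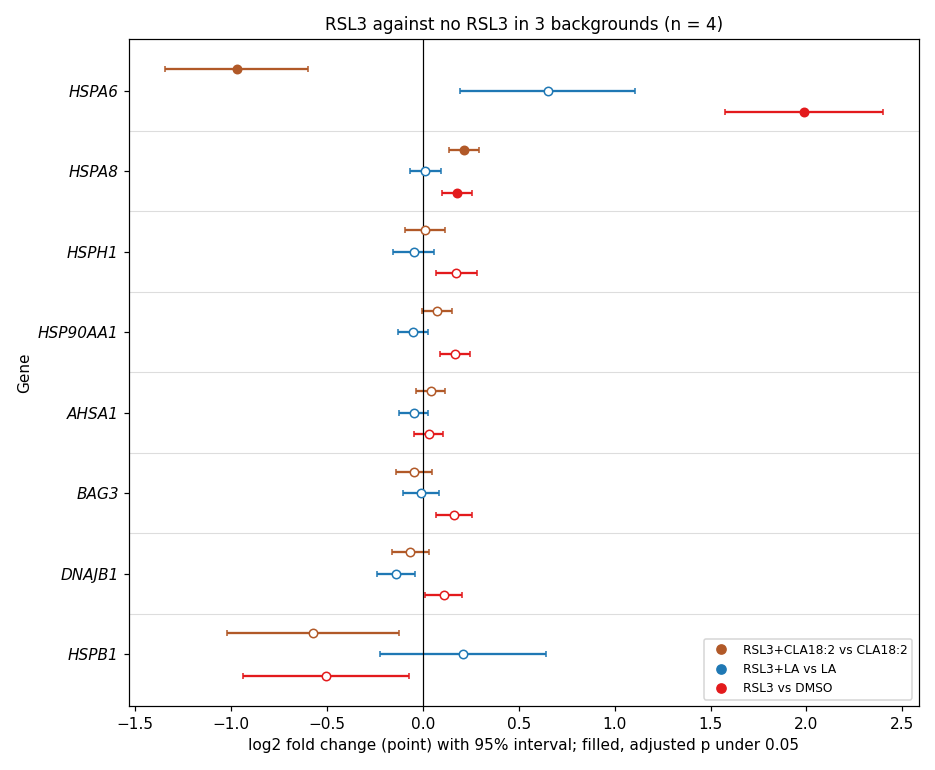
Log2 fold change (x axis) of the 8 tested genes (y axis) with RSL3 relative to the matching group without RSL3 (bars are 95% intervals from edgeR, n = 4 libraries per group), in cells given CLA18:2, LA or no fatty acid. HSPA6 lies at -0.97 with CLA18:2, 0.65 with LA and 1.99 with no fatty acid, while the other genes lie within 0.6 of 0.

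HSPA1A and HSPA1B, neighbouring genes on chromosome 6 that encode the main inducible HSP70, were barely detected. HSPA1A had 9, 7, 5 and 13 counts with CLA18:3, against 3, 2, 2 and 0 with DMSO. HSPA1B had 10, 11, 8 and 11 counts with CLA18:3, against 1, 2, 0 and 1 with DMSO. All 4 CLA18:3 libraries lay above all DMSO libraries for both genes. In the other 5 groups HSPA1A had 0 to 14 counts and HSPA1B 0 to 26 counts per library, and the highest of each was in RSL3+CLA18:2 replicate 1. The pair cannot be counted apart with certainty, since 67.1% of HSPA1A and 70.03% of HSPA1B windows of 150 bases are shared with other transcripts, chiefly with each other. Transcripts of a locus labelled AL671762.1 in GENCODE 29 also share windows with both.

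With the 2 genes summed to 1 row, the row passed the low-count filter. Summed counts were 19, 18, 13 and 24 with CLA18:3, 40, 5, 6 and 4 with RSL3+CLA18:2, and 13, 8, 5 and 10 with RSL3, against 4, 4, 2 and 1 with DMSO. The sum rose with CLA18:3 by a log2 fold change of 2.69 ± 0.79 (edgeR adjusted p = 0.00762), and the value stayed between 2.46 and 2.96 when each of the 8 libraries was left out, with adjusted p up to 0.0287. RSL3+CLA18:2 had 2.40 ± 0.80 (edgeR adjusted p = 0.0184), which became 0.81 with adjusted p = 0.476 without its replicate 1, and adjusted p = 0.0555 without DMSO replicate 3 and 0.0554 without DMSO replicate 4. RSL3 had 1.81 ± 0.83 (edgeR adjusted p = 0.780) and did not pass. All its libraries, at 0.262 to 0.788 CPM, nevertheless lay above those with DMSO, at 0.0557 to 0.210 CPM. RSL3+CLA18:2 relative to RSL3+LA had 2.12 ± 0.79 (edgeR adjusted p = 0.0441), which became 0.52 with adjusted p = 0.679 without RSL3+CLA18:2 replicate 1, and was also lost without RSL3+LA replicate 1, 2 or 3, with adjusted p up to 0.122. Leaving out libraries of this sum was chosen after seeing the data.

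HSPA8, the abundant constitutive HSP70, had 4994, 5217, 5107 and 4778 CPM with CLA18:3, 4616, 4558, 4693 and 4679 with RSL3+CLA18:2, and 4168, 3838, 4006 and 3996 with CLA18:2. It had 3466, 3262, 3297 and 3378 CPM with DMSO. The 3 treated groups lay apart from DMSO, and in order of mean level CLA18:3, RSL3+CLA18:2 and CLA18:2 did not overlap. HSPA8 rose by log2 0.58 ± 0.04 with CLA18:3 (edgeR adjusted p = 2.88e-14), 0.47 ± 0.04 with RSL3+CLA18:2 (edgeR adjusted p = 5.12e-12) and 0.26 ± 0.04 with CLA18:2 (edgeR adjusted p = 1.30e-06).

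RSL3 alone gave HSPA8 levels of 3599, 3561, 3903 and 4095 CPM, all above DMSO and partly overlapping CLA18:2. The log2 fold change of 0.18 ± 0.04 just passed the test (edgeR adjusted p = 0.0313). The call was lost when any of 5 libraries was left out, namely DMSO replicates 2, 3 and 4 and RSL3 replicates 3 and 4, with adjusted p up to 0.349. It was also lost in edgeR with library totals alone (adjusted p = 0.0935), with no low-count filter (adjusted p = 0.0632) and with only the groups compared (adjusted p = 0.111). RSL3 replicate 4 had the highest HSPA8 and HSP90AA1 levels of its group and its lowest mitochondrial share, at 0.548%, whose part in the result was not tested. LA and RSL3+LA had 0.01 ± 0.04 and 0.02 ± 0.04 relative to DMSO. HSPA8 was the only tested member called higher when RSL3 was added to CLA18:2, by 0.21 ± 0.04 (edgeR adjusted p = 0.000218), where 6.68% of genes were called higher and 5.26% lower; HSPA6 was the only one called lower. Its response to RSL3 with CLA18:2 exceeded that with LA by 0.20 ± 0.05 (edgeR adjusted p = 0.0308), and this call was lost without LA replicate 1 or 3, CLA18:2 replicate 2 or 3, RSL3+LA replicate 1 or 2, or RSL3+CLA18:2 replicate 3 or 4, with adjusted p up to 0.108. It was also lost in edgeR with library totals alone (adjusted p = 0.0747) and with no low-count filter (adjusted p = 0.141).

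HSPH1, an HSP110 protein that acts as a nucleotide exchange factor for HSP70, had 307, 323, 331 and 290.0 CPM with CLA18:3, 303, 296, 301 and 326 with RSL3+CLA18:2, and 336, 294, 311 and 276 with CLA18:2. It had 217, 215, 201 and 214 CPM with DMSO. The 3 treated groups overlapped one another and none overlapped DMSO. The log2 fold changes were 0.56 ± 0.05 (edgeR adjusted p = 1.40e-10), 0.54 ± 0.05 (edgeR adjusted p = 3.05e-10) and 0.52 ± 0.05 (edgeR adjusted p = 3.24e-10) in the same order. RSL3, LA and RSL3+LA had means of 239, 233 and 226 CPM, and their log2 values of 0.17, 0.14 and 0.09 did not pass the test, although all libraries with RSL3 and LA lay above DMSO.

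BAG3, a nucleotide exchange factor that links HSP70 to small heat shock proteins and to autophagy, had 241, 220.4, 234 and 219 CPM with CLA18:3. It had 234, 237, 218 and 247 CPM with RSL3+CLA18:2 and 244, 240.1, 244 and 239 with CLA18:2, against 156, 162, 158 and 162 with DMSO. It was the only one of the 8 tested members with its highest mean under CLA18:2, though the 3 CLA groups overlapped from neighbour to neighbour in that order. The log2 fold changes were 0.52 ± 0.05 with CLA18:3 (edgeR adjusted p = 5.11e-11), 0.55 ± 0.05 with RSL3+CLA18:2 (edgeR adjusted p = 7.59e-12) and 0.60 ± 0.05 with CLA18:2 (edgeR adjusted p = 6.73e-13). With RSL3 all 4 libraries, at 172 to 187 CPM, lay above DMSO, but the log2 value of 0.16 ± 0.05 did not pass (edgeR adjusted p = 0.243).

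HSP90AA1, the inducible cytosolic HSP90, had 2346, 2490, 2557 and 2322 CPM with CLA18:3, 2328, 2292, 2367 and 2380.3 with RSL3+CLA18:2, and 2359, 2188, 2185 and 2162 with CLA18:2. It had 1750.2, 1646, 1637 and 1650.1 CPM with DMSO. The CLA groups overlapped in neighbouring pairs, and all lay apart from every other group. The log2 fold changes were 0.54 ± 0.04 (edgeR adjusted p = 1.69e-13), 0.49 ± 0.04 (edgeR adjusted p = 1.56e-12) and 0.41 ± 0.04 (edgeR adjusted p = 5.53e-11) in the same order. RSL3 had 1834, 1778, 1917 and 1968 CPM, all above DMSO, with a log2 value of 0.17 ± 0.04 that missed the threshold (edgeR adjusted p = 0.0554). The value passed in limma voom (adjusted p = 0.0339) and DESeq2 (adjusted p = 0.00597). It did not pass under the other settings, with edgeR adjusted p up to 0.1998. With each library left out, the edgeR adjusted p ran from 0.0267 to 0.407. It passed only without DMSO replicate 1 or RSL3 replicate 2. Its 4 pseudogenes held 5369 counts over all libraries, against 1114521 for HSP90AA1.

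AHSA1, a cochaperone that activates the HSP90 ATPase, had 339, 353, 344 and 352 CPM with CLA18:3, 328, 336, 317 and 322 with RSL3+CLA18:2, and 319, 313, 315 and 319 with CLA18:2. It had 237, 242, 251 and 232 CPM with DMSO. CLA18:3 lay apart from RSL3+CLA18:2, which overlapped CLA18:2. The log2 fold changes were 0.53 ± 0.04 (edgeR adjusted p = 9.51e-14), 0.44 ± 0.04 (edgeR adjusted p = 8.26e-12) and 0.40 ± 0.04 (edgeR adjusted p = 5.52e-11) in the same order. AHSA1 was also the 1 member called with LA, at 270, 260, 260.3 and 266 CPM (log2 0.13 ± 0.04, edgeR adjusted p = 0.0156). That call was lost without DMSO replicate 1 or 4 or LA replicate 1, with adjusted p up to 0.0717, and with no low-count filter (edgeR adjusted p = 0.220).

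DNAJB1, the J-domain protein that works with inducible HSP70, followed another order. It had 255, 258, 249 and 258 CPM with CLA18:3, apart from all other groups, against 197, 191, 196 and 182 with DMSO (log2 0.41 ± 0.05, edgeR adjusted p = 1.53e-08). With CLA18:2 it had 197, 182, 198 and 194 CPM, and its log2 value against DMSO was 0.01, with an interval of -0.09 to 0.11. With RSL3+CLA18:2 it had 201, 179.6, 182 and 175 CPM, and the log2 value was -0.06, with an interval of -0.15 to 0.04. Both groups overlapped DMSO. With RSL3 it had 220.5, 207, 188 and 210.2 CPM, which overlapped DMSO (log2 0.11 ± 0.05, edgeR adjusted p = 0.753). DNAJB1 fell with RSL3+LA, to 177, 169, 158 and 170.2 CPM, relative to DMSO by 0.18 ± 0.05 on the log2 scale (edgeR adjusted p = 0.00855), and these libraries lay below all DMSO libraries.

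HSPB1, a small heat shock protein that is abundant in many cell types, had 34 to 113 counts per library. It had 1.96, 2.75, 1.60 and 2.20 CPM with RSL3+CLA18:2, all below the 3.73, 4.72, 4.08 and 3.68 CPM with DMSO, and it fell relative to DMSO by 0.93 ± 0.22 on the log2 scale (edgeR adjusted p = 0.000832). It was the only member called lower in that comparison. With CLA18:3 it had 5.52, 4.65, 3.32 and 4.41 CPM, which overlapped DMSO (log2 0.14 ± 0.21, edgeR adjusted p = 0.640). The means in the other 4 groups ranged from 2.86 to 3.31 CPM, and none passed the test against DMSO, although all 4 libraries with RSL3 lay below DMSO. HSPB1 shared no 150-base window with another gene's transcripts, and its 2 pseudogenes held 109 counts against 1839 for HSPB1.

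The effect of the fatty acid at a matched dose was tested between CLA18:2 and LA, both at 80 µM. Relative to LA, CLA18:2 raised 6 of the 8 tested members, and lowered none, where 15.6% of tested genes were called higher and 14.6% lower. HSPA6 had the largest difference, at log2 2.66 ± 0.21 (edgeR adjusted p = 1.44e-12). BAG3 rose by 0.55 ± 0.05 (edgeR adjusted p = 8.45e-12), HSPH1 by 0.38 ± 0.05 (edgeR adjusted p = 3.61e-07) and HSP90AA1 by 0.36 ± 0.04 (edgeR adjusted p = 2.32e-09). AHSA1 and HSPA8 rose by 0.26 ± 0.04 and 0.25 ± 0.04. DNAJB1 did not pass, at 0.05 with an interval of -0.04 to 0.15, nor did HSPB1, at 0.14 with an interval of -0.30 to 0.57.

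In the presence of RSL3, RSL3+CLA18:2 relative to RSL3+LA raised 7 members and lowered 1, where 14.1% of genes were called higher and 12% lower. HSPA6 differed by 1.03 ± 0.20 (edgeR adjusted p = 0.000172), BAG3 by 0.52 ± 0.05 (edgeR adjusted p = 6.94e-11), HSP90AA1 by 0.49 ± 0.04 (edgeR adjusted p = 3.49e-12) and HSPA8 by 0.45 ± 0.04 (edgeR adjusted p = 3.32e-11). HSPH1 and AHSA1 rose by 0.44 ± 0.05 and 0.35 ± 0.04. Calls for 2 members were near the threshold. DNAJB1 had 0.13 ± 0.05 (edgeR adjusted p = 0.0462), lost without RSL3+CLA18:2 replicate 1 or RSL3+LA replicate 2, 3 or 4. The call was also lost under 4 of 7 other settings. The value was 0.07 with library totals alone (edgeR adjusted p = 0.255), 0.11 with no low-count filter (edgeR adjusted p = 0.194), 0.12 in limma voom (adjusted p = 0.0504) and 0.12 with only the groups compared (edgeR adjusted p = 0.124). HSPB1 had -0.64 ± 0.22 (edgeR adjusted p = 0.0280), lost without RSL3+CLA18:2 replicate 1 or 3 or RSL3+LA replicate 2 or 4, with no low-count filter (adjusted p = 0.0934) and with only the groups compared (adjusted p = 0.0847).

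**Figure D4:**
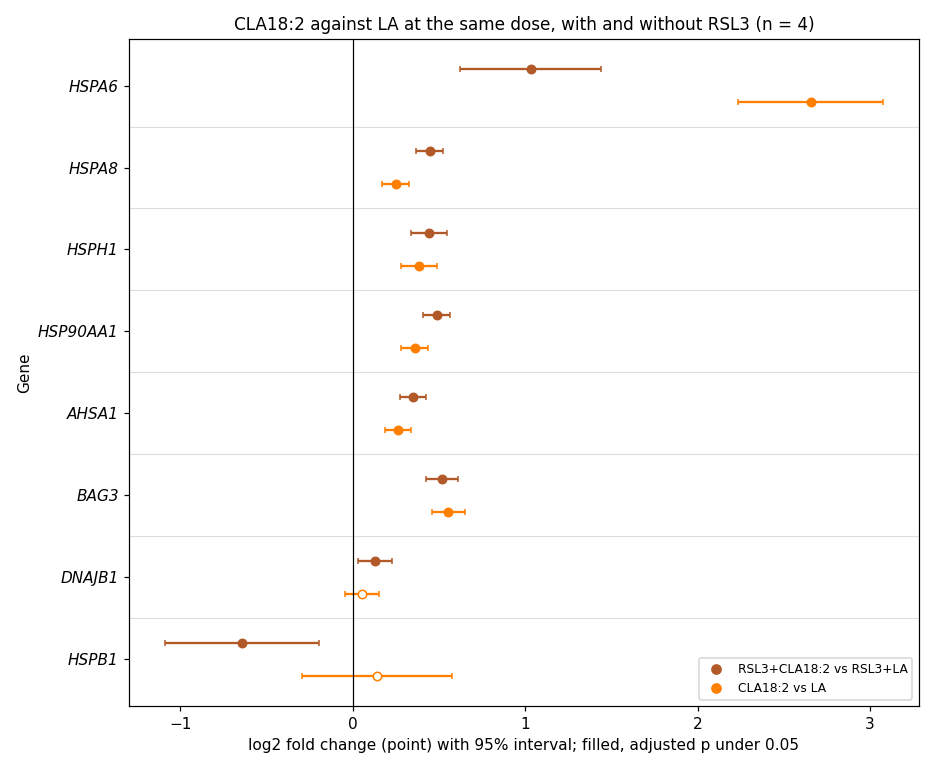
Log2 fold change (x axis) of the 8 tested genes (y axis) between cells given CLA18:2 and cells given LA at the same dose, with RSL3 and without it (bars are 95% intervals from edgeR, n = 4 libraries per group; filled where adjusted p was under 0.05). HSPA6 lies at 1.03 with RSL3 and 2.66 without, BAG3 at 0.52 and 0.55, and HSPB1 at -0.64 and 0.14.

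Each combination was also set against RSL3 alone. RSL3+LA lowered 4 members and raised none, where 5.8% of tested genes were called lower and 3.78% higher. Beside HSPA6, DNAJB1 fell by 0.29 ± 0.05 (edgeR adjusted p = 4.19e-05), HSP90AA1 by 0.16 ± 0.04 (edgeR adjusted p = 0.00343) and HSPA8 by 0.16 ± 0.04 (edgeR adjusted p = 0.00618). The HSPA8 call was lost without RSL3 replicate 4 or RSL3+LA replicate 1, and with only the groups compared (edgeR adjusted p = 0.0719). RSL3+CLA18:2 raised 5 members and lowered 2, where 15.9% were called higher and 14.5% lower. AHSA1 rose by 0.41, BAG3 by 0.39, HSPH1 by 0.36, HSP90AA1 by 0.32 and HSPA8 by 0.29, while HSPA6 fell and DNAJB1 fell by 0.16 ± 0.05 (edgeR adjusted p = 0.00750).

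Adding RSL3 to LA changed none of the 8 tested members at the threshold, where 0.0368% of tested genes were called higher and 0.0123% lower. Without adjustment, 1158 of the 16325 genes had a p under 0.05 in edgeR in that comparison, among them HSPA6 and DNAJB1. The tests of whether the RSL3 response differed called no member with LA, where 0% of genes were called higher and 0.0245% lower. With CLA18:2 they called 1 member lower, HSPA6, where 1.75% of genes were called higher and 1.8% lower. BAG3 did not pass that test in the main fit (-0.21 ± 0.07, edgeR adjusted p = 0.0713). It passed with only the groups compared (-0.20, edgeR adjusted p = 0.0406) and in DESeq2 (-0.21, adjusted p = 0.0213). The other settings had adjusted p up to 0.162 in edgeR or limma voom. Of the left-out libraries, only RSL3+CLA18:2 replicate 4 gave a pass (edgeR adjusted p = 0.0388). Between CLA18:2 and LA the tests called HSPA8 higher and HSPA6 lower, where 2.41% were called higher and 1.22% lower.

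The likeness of members was described by the distance between their patterns of 7 group means, as the root mean square difference of centred log2 CPM. Among the tested members, HSPH1 and HSP90AA1 were closest, at 0.0405, and BAG3, AHSA1 and HSPA8 lay within 0.0611 of their closest member. HSPA6 was 0.906 from its closest member, BAG3, DNAJB1 was 0.163 from HSPA8 and HSPB1 was 0.271 from DNAJB1. Among genes with a mean of at least 5 CPM over the 28 libraries, those nearest to HSPA6 were DDIT4 at 0.449, CHAC1 at 0.545 and DDIT3 at 0.607. Those nearest to HSPB1 were RPL13AP25 at 0.123, GAGE2A at 0.124 and APTR at 0.140, and those nearest to BAG3 were DPH3 at 0.0265, ERP44 at 0.0271 and TXNDC9 at 0.0282. HSPA6, HSPB1 and BAG3 are the members with the widest ranges of group means. For the other tested members too, a gene outside the members lay nearer than any member. UBXN8 lay at 0.0272 from HSPH1, POLR2C at 0.0379 from HSP90AA1 and DNAJB11 at 0.0308 from AHSA1. PPIP5K1 lay at 0.0395 from HSPA8 and CCDC9 at 0.0502 from DNAJB1. Closeness between members is therefore not particular to them. All of these distances rest on the same 28 libraries.

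Of 4 genes for heat shock factors and their binding protein, CLA18:3 raised 3, RSL3+CLA18:2 raised 2 and CLA18:2 raised 1, and none was lowered. Of all tested genes, 19.1%, 18.6% and 20.1% were called higher in these comparisons, so the 1 of 4 with CLA18:2 is near the background. HSF1 averaged 139 ± 7.32 CPM with CLA18:3, 125 ± 0.858 with RSL3+CLA18:2 and 132 ± 2.92 with CLA18:2, against 124 ± 6.04 with DMSO (SD, n = 4 each). Of these, HSF1 rose with CLA18:3 (log2 0.17 ± 0.06, edgeR adjusted p = 0.0225). HSF2, a related factor that can form mixed trimers with HSF1, rose by 0.44 ± 0.10 with CLA18:3 (edgeR adjusted p = 0.000749), 0.55 ± 0.10 with RSL3+CLA18:2 (edgeR adjusted p = 3.66e-05) and 0.56 ± 0.10 with CLA18:2 (edgeR adjusted p = 2.19e-05). HSBP1, which encodes a small protein that binds HSF1 trimers, rose by 0.29 with CLA18:3 and 0.23 with RSL3+CLA18:2. HSF1 activity is controlled largely at the protein level, and messenger RNA does not measure it.

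The other chaperone genes, together with the 4 genes for heat shock factors and their binding protein, were counted in 8 lists. These lists hold 55 genes, of which 49 were tested. CLA18:3 raised 32 and lowered 4, RSL3+CLA18:2 raised 23 and lowered 4, and CLA18:2 raised 16 and lowered 9. RSL3 changed none at the adjusted threshold in edgeR, where 0.178% of all tested genes were called higher and 0.0245% lower. LA lowered 1, where 4.91% were called higher and 3.41% lower. RSL3+LA raised 1 and lowered 3, where 5.43% were called higher and 4.81% lower. Relative to CLA18:2 alone, RSL3+CLA18:2 raised 12 of the 49 and lowered 2, where 6.68% were called higher and 5.26% lower. Of all tested genes, 19.1% were called higher and 16.7% lower with CLA18:3, 18.6% and 16.6% with RSL3+CLA18:2, and 20.1% and 18.6% with CLA18:2. The counts of each list below stand against these percentages, and a list with 1 called gene of 4 or 5 is near them.

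HSP90AB1, the constitutive HSP90, averaged 3627 ± 101 CPM with CLA18:3, 3722 ± 45.5 with RSL3+CLA18:2 and 3541 ± 55.3 with CLA18:2, against 3154 ± 68.4 with DMSO. It rose by 0.20 ± 0.03 (edgeR adjusted p = 1.04e-06), 0.24 ± 0.03 (edgeR adjusted p = 3.44e-08) and 0.17 ± 0.03 (edgeR adjusted p = 1.46e-05) in that order. Its list of 10 genes holds HSP90AB1 and HSP90 cochaperones. There CLA18:3 raised 9 and lowered 1, RSL3+CLA18:2 raised 6 and lowered 1, and CLA18:2 raised 4 and lowered 2. UNC45A, a chaperone of myosin that binds HSP90, rose by 0.48, 0.46 and 0.63, and CHORDC1, an HSP90 cochaperone, rose by 0.50, 0.25 and 0.23. FKBP5, an immunophilin of HSP90 and steroid receptor complexes, was named after its values were seen as the 1 member of this list called lower in all 3 groups, at -0.52, -0.37 and -0.60.

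Among the 4 tested small heat shock protein genes other than HSPB1, 1 was called in the CLA groups. HSPB8, which works with BAG3 in the removal of aggregated proteins, averaged 78.4 ± 7.95 CPM with CLA18:3, 90.02 ± 6.67 with RSL3+CLA18:2 and 105 ± 7.68 with CLA18:2, against 24.8 ± 1.91 with DMSO. It rose by 1.66 ± 0.08 (edgeR adjusted p = 2.88e-17), 1.86 ± 0.08 (edgeR adjusted p = 6.65e-19) and 2.08 ± 0.08 (edgeR adjusted p = 2.49e-20) in the same order. With RSL3 alone HSPB8 averaged 25.4 ± 1.58 CPM, with LA 26.9 ± 1.52 and with RSL3+LA 26.7 ± 3.84, and none of these 3 passed the test against DMSO. Under RSL3 alone HSPB8 had a log2 value of 0.03, beside the 1.99 of HSPA6.

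Of 7 HSP70 exchange and partner genes, CLA18:3 raised 4 and lowered 2, RSL3+CLA18:2 raised 3 and lowered 2, and CLA18:2 raised 3 and lowered 3. BAG2, which inhibits the ubiquitin ligase partner of HSP70, rose by 0.81, 0.83 and 0.75 in that order, and ST13, which stabilizes HSP70 bound to ADP, by 0.35, 0.34 and 0.35. Of 7 tested J-domain genes, CLA18:3 raised 4 and lowered 1, RSL3+CLA18:2 raised 4, and CLA18:2 raised 4. DNAJA1, a cytosolic J-domain partner of HSPA8, rose by 0.46, 0.32 and 0.17, and DNAJB6, which suppresses aggregation, by 0.19, 0.16 and 0.15.

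Of 5 tested other HSP70 and HSP110 genes, CLA18:3 raised 1, RSL3+CLA18:2 raised 2, and CLA18:2 raised 1 and lowered 1. HSPA12A, a distant HSP70 relative, rose by 0.70, 0.75 and 1.01 in the same order. HSPA14, a ribosome-bound HSP70, rose by 0.35 with RSL3+CLA18:2, and had 0.15 with CLA18:3 and -0.11 with CLA18:2.

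The chaperonin CCT, which folds actin and tubulin, gave 7 raised subunits of 8 with CLA18:3, 3 with RSL3+CLA18:2, and 1 raised and 2 lowered with CLA18:2. CCT3 rose by 0.31, 0.23 and 0.13 in that order, while CCT6A fell by 0.19 with CLA18:2 and had 0.06 and 0.00 in the other 2. Of 4 tested mitochondrial chaperone genes, CLA18:3 raised 3, RSL3+CLA18:2 raised 2 and lowered 1, and CLA18:2 raised 1 and lowered 1. HSPA9, the mitochondrial HSP70, rose by 0.49, 0.55 and 0.46. TRAP1, the mitochondrial HSP90, fell by 0.28 with RSL3+CLA18:2 and by 0.37 with CLA18:2, and had -0.12 with CLA18:3.

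**Figure D5:**
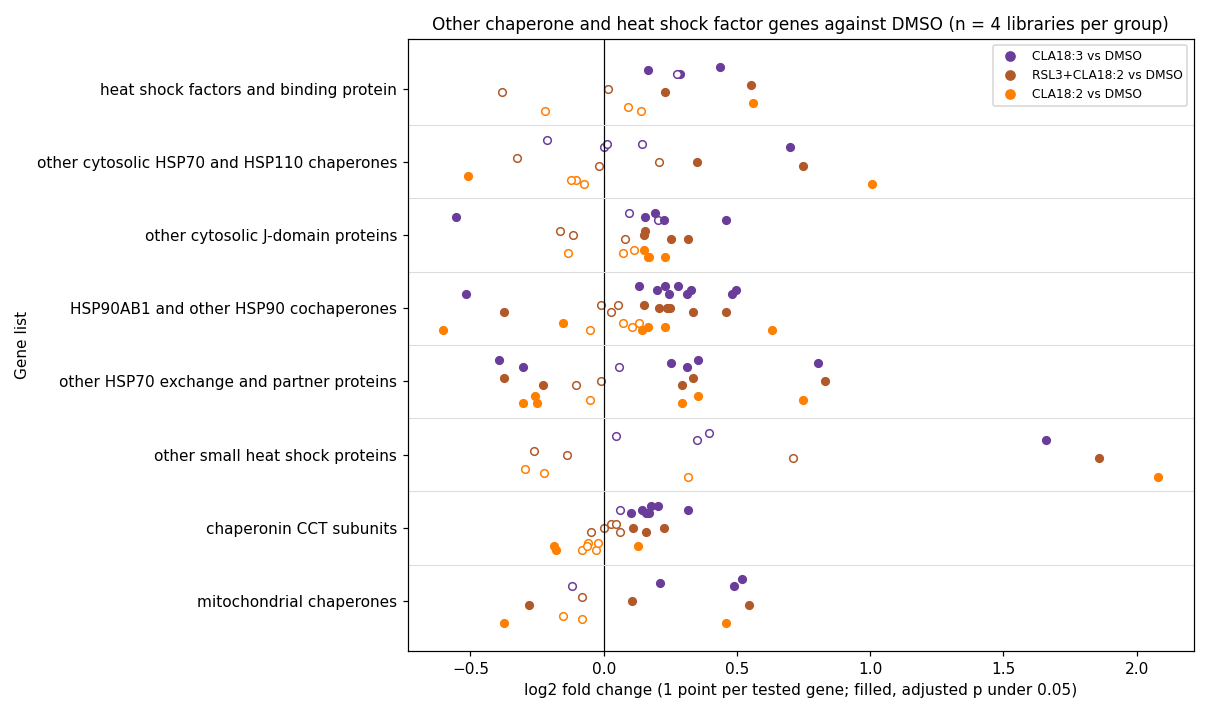
Log2 fold change (x axis) of each tested gene of 8 lists of other chaperone and heat shock factor genes (y axis) for CLA18:3, RSL3+CLA18:2 and CLA18:2 against DMSO (1 point per gene and comparison, edgeR, n = 4 libraries per group; filled where adjusted p was under 0.05). HSPB8 stands apart at 1.66, 1.86 and 2.08, and most genes of the HSP90 list lie to the right of 0 with CLA18:3.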

How the data were processed

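The deposited files hold raw counts of reads per gene, 1 column per library, as the authors deposited them. The submitters' processing notes name HISAT, SAMtools, featureCounts and DESeq2 with the build hg38. Versions, annotation, strand setting and the treatment of multi-mapping reads are not given in the sources used here.

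Counts were analysed in R 4.3.3 with edgeR 4.0.16. The default expression filter on the 7 groups kept 16325 of 60286 genes, which hold 99.9% of counts. A model with 1 mean per group and TMM scaling was fitted to all 28 libraries, so each gene had 1 spread shared by all groups. The groups differed in their own variation between libraries beyond counting error. As a coefficient of variation it was 4.51% with DMSO, 15.1% with RSL3+CLA18:2, 19.9% with CLA18:3 and 7.26% to 9.01% in the other groups. The 12 comparisons and 3 differences between RSL3 responses were tested by edgeR's quasi-likelihood method, with p-values adjusted over all tested genes by Benjamini-Hochberg and a threshold of 0.05. SEs were derived from each log2 fold change and its F statistic, and intervals are at 95%. Totals were 16226270 to 24286824 counts per library. In simulated counts for CLA18:3 against DMSO on 15851 genes, the fit recovered 34% of 50 genes raised 1.25-fold and 78% of 50 raised 1.5-fold. Small changes can thus be missed. The simulation changed few genes, all upward, at low as well as high levels and with the same spread in both groups. Its rates therefore do not carry over to the abundant members or to comparisons in which many genes change.

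The members and lists were chosen with earlier results of these data known. Members are all named. Of each list, up to 2 called genes with the smallest p in the CLA groups are named, plus HSF1, HSF2 and HSP90AB1. Genes of near-copy families are given by counts only. Alternatives were other scaling, no filter, limma 3.58.1 (voom), DESeq2 1.42.0, a replicate block, only the compared groups, leaving out each library, and HSPA1A and HSPA1B summed. No 2 of the 42 pairs of replicates agreed within sampling noise: chi-square per degree of freedom ran from 2.42 to 27.6. Gene positions are from GENCODE 29 (GRCh38), and upstream sequences from RefSeq (GRCh38.p14), for which all 10 members matched. Plots used matplotlib 3.10.9 under Python 3.11.15.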

Additional observations from a re-analysis of the deposited data

Results flagged for a closer look

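Single libraries stood apart from the other 3 of their group in 5 of the 70 sets of 4 checked by Dixon's test at 95%, where chance gives about 1 in 20. HSPA1A had 0.354 CPM (7 counts) in RSL3+LA replicate 4, where the other 3 libraries had 0 counts. HSPA1B had 1.495 CPM (26 counts) in RSL3+CLA18:2 replicate 1, where the others had 0.108 to 0.180 CPM. HSP90AA1 had 2359 CPM in CLA18:2 replicate 1, where the others had 2162 to 2188 CPM, 1620.3 CPM in LA replicate 2, where the others had 1756 to 1777 CPM, and 1750.2 CPM in DMSO replicate 1, where the others had 1637 to 1650.1 CPM.

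The tests of whether the RSL3 response differed with the fatty acid called 2 of the 8 tested members. For CLA18:2 against no fatty acid, 1.75% of all tested genes were called higher and 1.8% lower. For CLA18:2 against LA, 2.41% were called higher and 1.22% lower. For HSPA6 the response with CLA18:2 differed from that with no fatty acid by -2.96 on the log2 scale (edgeR adjusted p = 1.04e-08), and from that with LA by -1.62 (edgeR adjusted p = 0.000882). With CLA18:2 the RSL3 libraries were lower in 4 of 4, and with no fatty acid they were higher in 4 of 4. For HSPA8 the response with CLA18:2 exceeded that with LA by 0.20 (edgeR adjusted p = 0.0308). This HSPA8 call was lost for 8 of the 16 libraries when each was left out, with edgeR adjusted p up to 0.108. It was also lost in edgeR with library totals alone or no low-count filter.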

How the results depend on the processing

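Over 120 member results and 1984 alternatives, 1901 kept their direction and side of the threshold, 39 lost a call, 13 gained one and 31 changed sign, in 11 results whose log2 value was at most 0.07 in size and not called. No setting moved the median of all genes by over 0.1. Counts of called members that moved by over 1.5 times were as follows. RSL3 against DMSO gave 1 in place of 2 with library totals alone, no filter or only the compared groups. LA against DMSO gave 0 in place of 1 with no filter and 2 with only the compared groups. The difference between RSL3 responses with LA and with no fatty acid gave 1 in place of 0 with no filter (HSPA6) and 2 with DESeq2 (DNAJB1 and HSP90AA1), that with CLA18:2 gave 2 in place of 1 with only the compared groups (HSPA6 and BAG3), and that between CLA18:2 and LA gave 1 in place of 2 with library totals alone, no filter or DESeq2. DESeq2 gave no adjusted p for HSPA6 and HSPB1 in these 3 differences and in RSL3+LA against LA, so HSPA6 is out of its counts there. The causes were not tested.

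When each library was left out, the called members ranged from 1 to 3 (RSL3 against DMSO), 0 to 1 (LA against DMSO), 3 to 5 (RSL3+LA against RSL3), 2 to 3 (RSL3+CLA18:2 against CLA18:2), 6 to 8 (RSL3+CLA18:2 against RSL3+LA), and 1 to 2 for the RSL3 response with CLA18:2 against none or against LA. The other 8 counts did not move. Sign changes with the settings were DNAJB1, CLA18:2 against DMSO (-0.0018, library totals alone), HSP90AA1, RSL3+LA against DMSO (-0.00018, no filter; -0.0021, only the compared groups), and HSPH1, RSL3+CLA18:2 against CLA18:2 (-0.017, library totals alone; -0.011, no filter). Over left-out libraries these 3 ran from -0.015 to 0.051, -0.0086 to 0.024 and -0.033 to 0.055. BAG3 ran from -0.0097 to 0.076 (RSL3+LA against DMSO), -0.054 to 0.031 (RSL3+LA against LA) and -0.079 to 0.0067 (RSL3 response, CLA18:2 against LA). HSPA8 ran from -0.0088 to 0.025 (LA against DMSO), -0.0028 to 0.038 (RSL3+LA against DMSO) and -0.011 to 0.031 (RSL3+LA against LA). AHSA1 ran from -0.011 to 0.027 and HSPB1 from -0.21 to 0.089 for the RSL3 response with CLA18:2 against none.

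With the replicate block, CLA18:3 raised 7 members against DMSO, RSL3+CLA18:2 raised 6 and lowered 1, and RSL3+LA lowered 1. CLA18:2 raised 6, LA raised 1 and RSL3 raised 2. Of all 16325 tested genes, 5839, 5779, 1695, 6341, 1350 and 33 were called in either direction, in the same order. No member call changed in any of the 15 tests. Over all tested genes, 1 of 84 correlations between same-numbered libraries was over 0.1, and in 0 of 21 group pairs were all 4 over it. Among genes with a mean of at least 10, 30 and 100 CPM the group pairs numbered 0, 1 and 2 of 21. From 8 to 10 of 28 libraries lay nearest to their own number. The numbers were therefore not taken to pair the libraries. HSPA1A and HSPA1B had 0 to 26 counts per library, and 67.1% and 70.03% of their 150-base windows are shared with other transcripts. Neither gene passed the low-count filter.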
